A study of Homo sapiens with 4 samples.

Results

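The 6 genes described here, ATOH1, OLIG3, NHLH1, NHLH2, NEUROD2 and NEUROD4, encode neural transcription factors with a basic helix-loop-helix (bHLH) domain. They were taken by name, and each was found in the transcript quantifications by its mean count and log2 fold change in the study's gene table. They are 6 of 1652 genes that could be tied to a symbol and 6 of 43846 genes and transcripts tested. The data are RNA-seq libraries of ATOH1-TRAP immunoprecipitates (IPs) and of input RNA. The cells were of the RUES2 line, a human embryonic stem cell line, carrying a lentiviral ATOH1-EGFP-L10a transgene in which a human ATOH1 enhancer drives EGFP fused to the ribosomal protein L10a. In TRAP, antibodies to GFP pull down tagged ribosomes with the mRNA bound to them, so the IPs hold ribosome-bound mRNA of transgene-expressing cells. The input is the RNA they are set against. The study's text calls it unbound in one place, and whether it was taken before or after the pull-down is not given in the sources used here. All libraries came from cultures taken towards cerebellar granule cells to day in vitro (DIV) 28 with dual SMAD inhibition (SB431542 and LDN-193189), CHIR99021, FGF2, BMP7 and BDNF, under puromycin. There were 3 IP libraries, each from its own differentiation experiment, and 1 input library. The enhancer, not the endogenous ATOH1 locus, decides which cells carry the tag, and input and IP share the transgene.

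bHLH factors bind DNA as dimers at E-boxes, sites of the form CANNTG. Proneural members such as ATOH1 commit progenitors to a neuronal fate, and later members such as the NHLH and NEUROD factors act in differentiating neurons, while HES and ID proteins oppose them. In the mouse hindbrain Atoh1 marks the rhombic lip and the granule cell progenitors that arise from it, and Olig3 is expressed in the dorsal progenitor domains that include it.

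Which library is the input had to be settled first. The sample labelled input carries the tag T113 in its title, but the file deposited for it carries the tag of an IP, and the file tagged T113 is deposited for a sample labelled IP. The T113 library was taken as the input. Among 492 genes tied by mean count alone, the fold change recomputed with this library as the input equalled the one used for naming within 0.01 for 441 genes, and for 0 genes with any other library. The scaling of these mean counts was itself fitted on 364 genes whose fold change matched with the T113 library as the input. The 441 genes are therefore not an independent check of that assignment. With the file table's assignment instead, 0 of the 6 genes passed the test in either direction, 0 of them at an unadjusted p under 0.05, and every direction given below rests on the T113 assignment. The libraries held 34603230, 36860319 and 37719839 estimated counts in the IPs and 41173019 in the input.

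Naming was limited to the genes that the study called most strongly, because only those rows of its gene table could be used. A gene tied to a symbol therefore had to differ between IP and input, and the shares of called genes among them are given as a description. Among all 43846 genes and transcripts, edgeR's quasi-likelihood test called 2.34% higher and 1.5% lower in the IPs at an adjusted p under 0.05. Among the 1652 named genes it called 29.8% higher and 27.2% lower.

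The gene models decide which reads could be counted. On GRCh37 (hg19), ATOH1 lies on chromosome 4 at 94749904-94752115, plus strand, as 1 exon of 2212 bases, but the quantified model (uc003hta.1) had 1065 bases, the length of the coding sequence with its stop codon, so reads in its UTRs were not counted. OLIG3 lies on chromosome 6 at 137813336-137815531, minus strand, as 1 exon of 2196 bases, and its model (uc003qhp.1) had the same length. NHLH1 lies on chromosome 1 at 160336861-160342636, plus strand, with 2 exons (uc001fwa.2), and NHLH2 on the same chromosome at 116378998-116386538, minus strand, with 3 exons in its main model (uc001efy.3 and uc009wgz.3 summed). NEUROD2 lies on chromosome 17 at 37759789-37766030, minus strand, with 2 exons (uc002hry.3). NEUROD4 lies on chromosome 12 at 55413758-55423801, plus strand, with 2 exons (uc001sgp.4).

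Because the 6 genes come from one family, the models (nearest GENCODE transcripts) were compared for sequence that reads could share. None of the models had a 31-base word in common with another of the 6. ATOH1, NHLH1, NHLH2 and NEUROD4 shared no such word with any other annotated gene, OLIG3 shared 2 of 2166 with BHLHE23, another bHLH gene, and NEUROD2 shared 11 of 2991. NHLH1 and NHLH2 encode closely related bHLH proteins, and their longest shared run was 24 bases, inside the coding sequence of both, at chr1:160340774-160340797 on the plus strand in NHLH1 and chr1:116380712-116380735 on the minus strand in NHLH2. It is printed because it is the stretch where reads of the pair would be hardest to tell apart.
NHLH1 and NHLH2 shared run: cgcatccgcgtggaagccttcaac

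The 250 bases before each RefSeq gene start were searched on both strands for E-boxes, since bHLH proteins bind such sites. The RefSeq starts of NEUROD2 and NHLH2 lie inside the GENCODE gene spans given above, which take in longer transcripts, so their windows lie inside those spans too. Sequences came from the RefSeq promoter table (GRCh38.p14) and were placed on GRCh37 by exact match. The 6 genes had 7 such windows, 2 of them for NHLH2, and 6 of the 7 windows held at least 1 CANNTG, where 61.8% of all 35116 promoter windows did. The form CAGATG (or CATCTG on the other strand) was in 3 of the 7 windows, those of NHLH1, NHLH2 and NEUROD2, against 12.2% of all windows. CAGCTG was in 2 of the 7, those of NEUROD4 and NHLH2, against 14% of all. The OLIG3 window held no CANNTG. A match is a run of letters and not a measured binding site. The windows of ATOH1, of NHLH1 and of both NEUROD genes are shown as examples of windows with 1, 1, 3 and 2 matches (ATOH1, NHLH1, NEUROD2, NEUROD4), 5′ to 3′ on the strand of the gene, with each E-box in capitals.
ATOH1 (chr4:94749654-94749903, plus strand): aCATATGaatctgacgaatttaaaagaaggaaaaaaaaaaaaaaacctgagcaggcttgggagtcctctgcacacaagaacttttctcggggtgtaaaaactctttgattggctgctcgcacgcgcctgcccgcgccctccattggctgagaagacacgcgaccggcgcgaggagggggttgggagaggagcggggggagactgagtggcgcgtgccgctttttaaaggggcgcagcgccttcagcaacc
NHLH1 (chr1:160336611-160336860, plus strand): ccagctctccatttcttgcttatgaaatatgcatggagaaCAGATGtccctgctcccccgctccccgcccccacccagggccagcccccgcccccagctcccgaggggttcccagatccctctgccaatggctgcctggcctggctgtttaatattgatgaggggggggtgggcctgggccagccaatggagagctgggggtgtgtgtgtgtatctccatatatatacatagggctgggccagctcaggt
NEUROD2 (chr17:37764174-37764423, minus strand): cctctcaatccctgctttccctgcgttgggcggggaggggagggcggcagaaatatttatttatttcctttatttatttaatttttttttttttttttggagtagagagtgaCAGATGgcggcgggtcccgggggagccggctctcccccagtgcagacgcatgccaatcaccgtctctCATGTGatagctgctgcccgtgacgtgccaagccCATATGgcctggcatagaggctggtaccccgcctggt
NEUROD4 (chr12:55413508-55413757, plus strand): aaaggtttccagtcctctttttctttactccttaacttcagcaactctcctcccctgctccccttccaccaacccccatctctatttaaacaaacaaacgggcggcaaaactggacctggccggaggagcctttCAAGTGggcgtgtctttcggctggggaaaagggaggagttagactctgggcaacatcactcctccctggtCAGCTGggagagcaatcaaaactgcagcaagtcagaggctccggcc

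ATOH1, the factor whose enhancer drives the tag, was abundant in every IP and close to absent from the input. It had 935, 1330 and 1228 reads in the IPs, against 7 reads in the input. Scaled to library size with TMM factors, these were 26.1, 36.0 and 33.2 CPM (counts relative to the scaled library size) in the IPs, against 0.173 CPM in the input, a mean of 31.8 ± 5.12 CPM (SD, n = 3) in the IPs. The groups did not overlap, at IP to input ratios of 151, 208 and 192. The log2 fold change was 7.49 (standard error 0.45, adjusted p = 0.0197, edgeR). The 95% Poisson interval of the 7 input reads alone put the mean ratio of 184 between 89.1 and 457. Such intervals cover counting error only, since PCR copies of a molecule were counted as separate reads.

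OLIG3, a factor of dorsal hindbrain progenitors in the mouse, followed ATOH1 in estimated size of difference but varied most among the IPs. It had 707, 1195 and 1517 reads in the IPs, against 11 in the input, or 19.7, 32.4 and 41.0 CPM in the IPs, against 0.272 CPM in the input. The highest IP was 2.08 times the lowest, and the coefficient of variation over the IPs was 34.5%, against a median of 10.1% over the named genes. The IPs were all still far above the input, at ratios of 72.6, 119 and 151. The log2 fold change was 6.82 (standard error 0.73, adjusted p = 0.0352, edgeR). Counting error in the input put the mean ratio of 114 between 63.8 and 229, which overlaps the ranges of NHLH1 and NEUROD4 below. Without IP 3 the log2 fold change of OLIG3 was 6.56, against 6.58 for NEUROD4, so its place after ATOH1 is open.

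The OLIG3 to ATOH1 read ratio is given as a description, with 1 library per differentiation and intervals that cover counting error only. It was 0.756 (95% exact binomial interval 0.685 to 0.835) in IP 1, 0.898 (0.83 to 0.972) in IP 2 and 1.24 (1.15 to 1.33) in IP 3. In the input it was 1.57, with an interval from 0.556 to 4.78 that spans all the IP values.

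NHLH1, a factor of newly born neurons, was high in all IPs and varied little among them. It had 1714, 1618 and 1440 reads in the IPs, against 22 reads in the input, or 47.9, 43.8 and 38.9 CPM in the IPs, against 0.544 CPM in the input. Its IP values lay within 1.23 times of each other, all far above the input, at ratios of 88.0, 80.6 and 71.6. The log2 fold change of NHLH1 was 6.31 (standard error 0.31, adjusted p = 0.0162, edgeR), the smallest adjusted p of the 6. Counting error in the input put the mean ratio of 80.1 between 52.9 and 128.

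NHLH2, its close relative, was also higher in every IP, but was readily detected in the input. It had 926, 1093 and 911 reads in the IPs, against 182 in the input, or 25.9, 29.6 and 24.6 CPM in the IPs, against 4.50 CPM in the input. The ratios of the single IPs to the input were 5.75, 6.58 and 5.48. The log2 fold change of NHLH2 was 2.57 (standard error 0.27, adjusted p = 0.0346, edgeR). The reads of NHLH2 were spread over a pair of models of nearly equal length, and the share given to uc009wgz.3 was 4.01%, 0% and 15.5% in the IPs, against 21.4% in the input. With the main model uc001efy.3 alone the log2 fold change was 2.83.

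The NHLH genes thus stood in opposite order in IP and input. Per read of NHLH2 there were 1.85, 1.48 and 1.58 reads of NHLH1 in the IPs, against 0.121 in the input (95% exact binomial interval 0.0739 to 0.189). Their models are nearly equal in length, and the order held in TPM as well, where NHLH1 had 24.5, 21.7 and 18.3 TPM in the IPs, against 0.337 TPM in the input, and NHLH2 had 13.5, 15.0 and 11.8 TPM in the IPs, against 2.85 TPM in the input.

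NEUROD2, a factor of differentiating and mature neurons, showed the smallest difference of the 6. It had 693, 659 and 778 reads in the IPs, against 188 in the input, or 19.3, 17.9 and 21.0 CPM in the IPs, against 4.65 CPM in the input. All 3 IPs were above the input, by 4.16, 3.84 and 4.53 times. The log2 fold change of NEUROD2 was 2.06 (standard error 0.31), and its adjusted p of 0.0499 (edgeR) lay just inside the threshold of 0.05. NEUROD2 did not pass with median-ratio scaling (adjusted p = 0.0521), with no filter on low counts (adjusted p = 0.0516) or with each transcript tested on its own (adjusted p = 0.0563).

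NEUROD4, a factor of neuronal differentiation, had the lowest level of the 6 in TPM, in IP and input. It had 177, 192 and 214 reads in the IPs, against 2 in the input, or 4.94, 5.20 and 5.79 CPM in the IPs, against 0.0494 CPM in the input. The IPs varied little, with a coefficient of variation of 8.15%. The log2 fold change of NEUROD4 was 6.65 (standard error 0.87, adjusted p = 0.0423, edgeR). With 2 reads in the input, counting error alone put the mean ratio of 107 between 29.7 and 887, so its place among the 6 by size of difference is open over that range. Per read of NEUROD2 there were 0.255, 0.291 and 0.275 reads of NEUROD4 in the IPs, against 0.0106 in the input (95% exact binomial interval 0.00128 to 0.039).

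**Figure D1:**
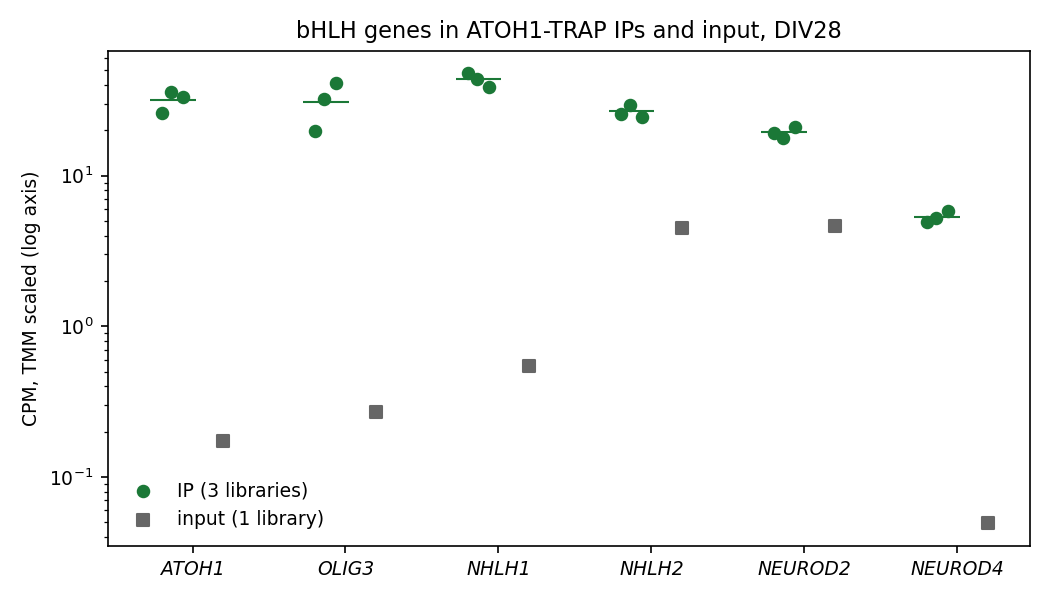
TMM-scaled CPM (log axis) of the 6 bHLH genes in the 3 IP libraries (circles, with the mean as a line) and the 1 input library (square). Every IP value of every gene lies above its input value, with NHLH2 and NEUROD2 at 4.50 and 4.65 CPM in the input and the other 4 genes under 1 CPM there.

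All 6 genes were called higher and 0 lower in the IPs. The background is the 2.34% of all genes and transcripts called higher. Naming required a strong earlier call, so the count of 6 is not a result about the family. No IP value overlapped the value of the 1 input in any of the 6. The share of all genes and transcripts without such overlap was not counted, so this is a description. The sizes of the difference were far from equal. The 4 genes with fewer than 25 reads in the input (ATOH1, OLIG3, NHLH1 and NEUROD4) had log2 fold changes of 6.31 to 7.49, and the 2 with more than 100 (NHLH2 and NEUROD2) had 2.57 and 2.06. Of the 1652 named genes, 53 had fewer than 25 input reads. The median log2 fold change was 6.48 over the 6 genes, against 0.81 over the named genes and 0.10 over all genes and transcripts. This median and the ranks below are descriptions too. The 6 were chosen with earlier results of these data known and named through strong calls. By log2 fold change ATOH1, OLIG3, NEUROD4 and NHLH1 ranked 10, 12, 13 and 17 among the 1652 named genes, NHLH2 ranked 165 and NEUROD2 ranked 245.

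The spread behind these tests came from the 3 IPs alone, and the single input was assumed to vary like them. Leaving out any 1 IP left 0 of the 6 genes past the threshold, with adjusted p from 0.154 to 0.168 without IP 1, from 0.191 to 0.205 without IP 2 and from 0.105 to 0.129 without IP 3, although all 6 stayed positive and under an unadjusted p of 0.05. With limma-voom 0 of the 6 passed, with adjusted p from 0.0696 to 0.35 and 5 of them under an unadjusted p of 0.05.

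**Figure D2:**
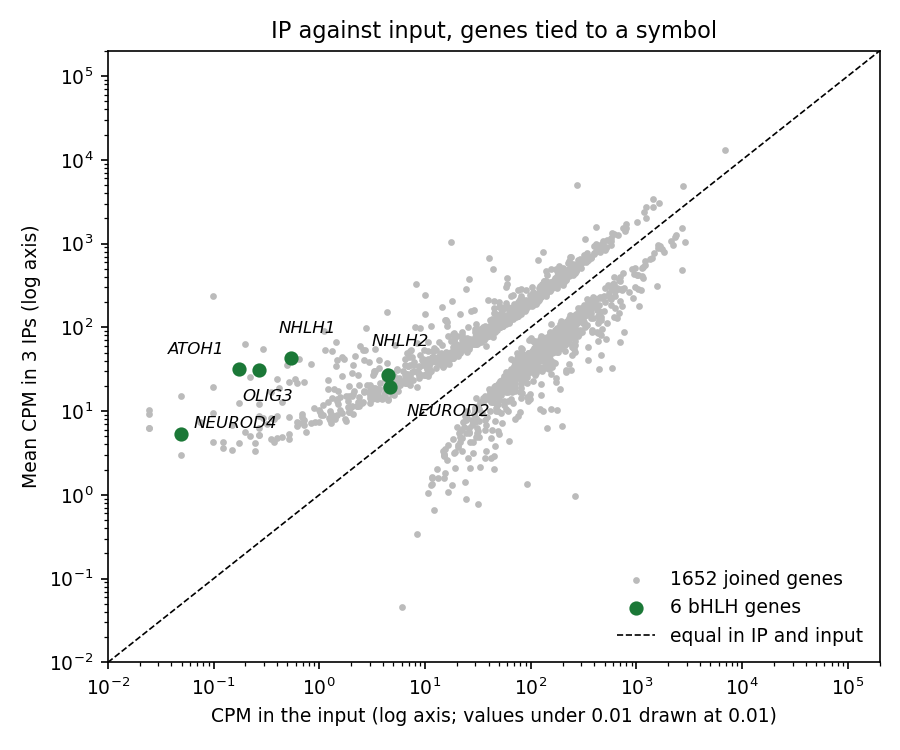
Mean CPM in the 3 IPs (vertical) against CPM in the input (horizontal), both on log axes, for 1652 genes tied to a symbol (grey) and the 6 bHLH genes (green), with the dashed line marking equal values. Genes along the line are missing because naming required a strong earlier call. ATOH1, OLIG3, NHLH1 and NEUROD4 lie at the low end of the input axis, and NHLH2 and NEUROD2 lie in the body of the higher genes.

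In TPM, which divides by model length and so allows genes to be compared, the mean IP levels ran from 44.1 ± 6.42 for ATOH1 to 21.5 ± 3.10 for NHLH1, 17.9 ± 5.51 for OLIG3, 13.4 ± 1.60 for NHLH2, 7.91 ± 0.486 for NEUROD2 and 1.62 ± 0.0607 for NEUROD4 (SD, n = 3 each). ATOH1 lay above NHLH1 in all 3 IPs with no overlap, its lowest IP being 37.8 TPM and the highest of NHLH1 24.5 TPM. This level is relative to the coding sequence alone, which makes it less comparable with the 5 models that hold UTRs. NHLH1 and OLIG3 overlapped, with NHLH1 higher in 2 of the 3 IPs, and so did OLIG3 and NHLH2, with OLIG3 higher in 2 of 3. NHLH2 over NEUROD2 and NEUROD2 over NEUROD4 were apart in all 3.

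The order in the input was another one. NHLH2 came first at 2.85 TPM and NEUROD2 next at 2.39 TPM, followed by NHLH1 at 0.337, ATOH1 at 0.304, OLIG3 at 0.2 and NEUROD4 at 0.0191 TPM. NHLH2 and NEUROD2 made up 46.7% and 39.2% of the summed TPM of the 6 genes in the input. In the IPs NHLH2 made up 13.8%, 13.0% and 11.0%, and NEUROD2 8.42%, 6.37% and 7.66%. ATOH1 made up 38.7%, 43.9% and 41.3% of the sum in the IPs, against 4.98% in the input. The summed level averaged 107 ± 8.96 TPM over the IPs (SD, n = 3), against 6.10 TPM in the input.

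**Figure D3:**
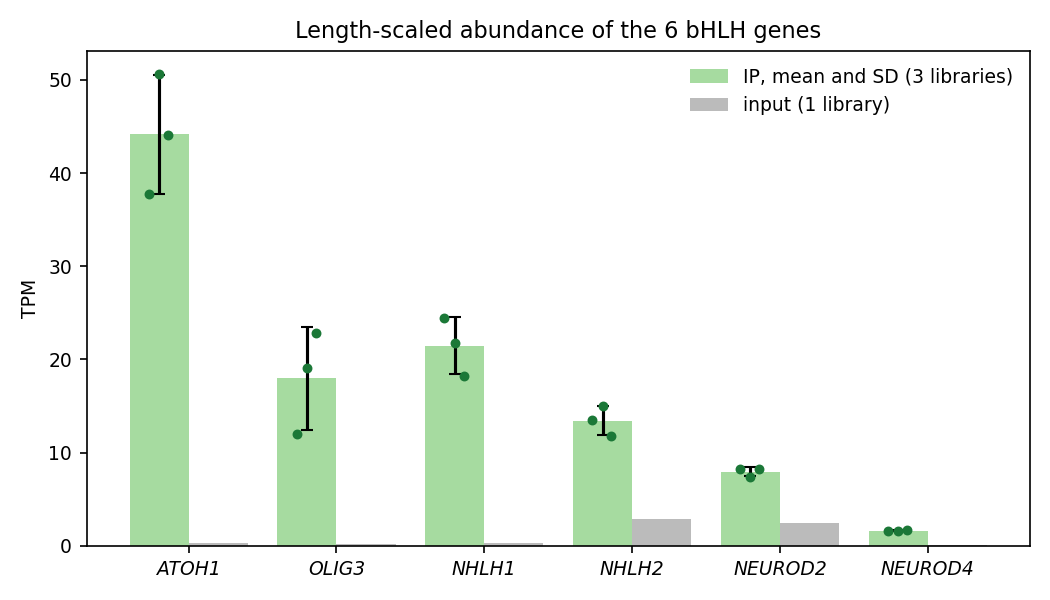
TPM of the 6 bHLH genes on a linear axis, as mean and SD of the 3 IPs (green bars, single libraries as points) beside the 1 input library (grey bars). ATOH1 is the highest in the IPs at 44.1 TPM and NHLH2 the highest in the input at 2.85 TPM.

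The wider bHLH list held 40 genes, of which 11 could be tied to transcripts, 9 of them higher, 0 lower and 2 not past the test. Of these, 6 of the 11 and 6 of the 9 are the genes described above, which leaves 3 higher of 5, beside 29.8% of the named genes and 2.34% of all genes and transcripts. Beside the 6 genes, ID2, HES4, HES5 and HES6 are described here. Of the 23 proneural and neuronal factors 7 could be tied, of the 10 HES and HEY factors 3, of the 4 ID inhibitors 1, and of the 3 E-proteins, the common dimer partners, 0. Genes not tied, NEUROD1 among them, are not analysed here.

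HES6, a HES protein that promotes neuronal differentiation in mouse and frog, had 1292, 965 and 873 CPM in the IPs, against 17.8 CPM in the input. It averaged 1056 ± 266 TPM over the IPs (SD, n = 3), against 22.5 TPM in the input. Its log2 fold change was 5.87 (standard error 0.37, adjusted p = 0.0209, edgeR).

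HES5, a Notch target that opposes proneural factors, had 400, 327 and 271 reads in the IPs, against only 1 read in the input. Its log2 fold change was 8.35 (standard error 0.84, adjusted p = 0.0325, edgeR), and counting error in that 1 read put the mean ratio of 369 between 66.2 and 14571. HES4 had 32.3, 27.9 and 31.02 CPM in the IPs, against 4.35 CPM in the input. Its log2 fold change was 2.80 (standard error 0.25, adjusted p = 0.0287, edgeR). ID2, which binds E-proteins and keeps them from DNA, had 915, 782 and 875 CPM in the IPs, against 455 CPM in the input. Its log2 fold change of 0.91 (standard error 0.14) did not pass (adjusted p = 0.0524, edgeR).

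**Figure D4:**
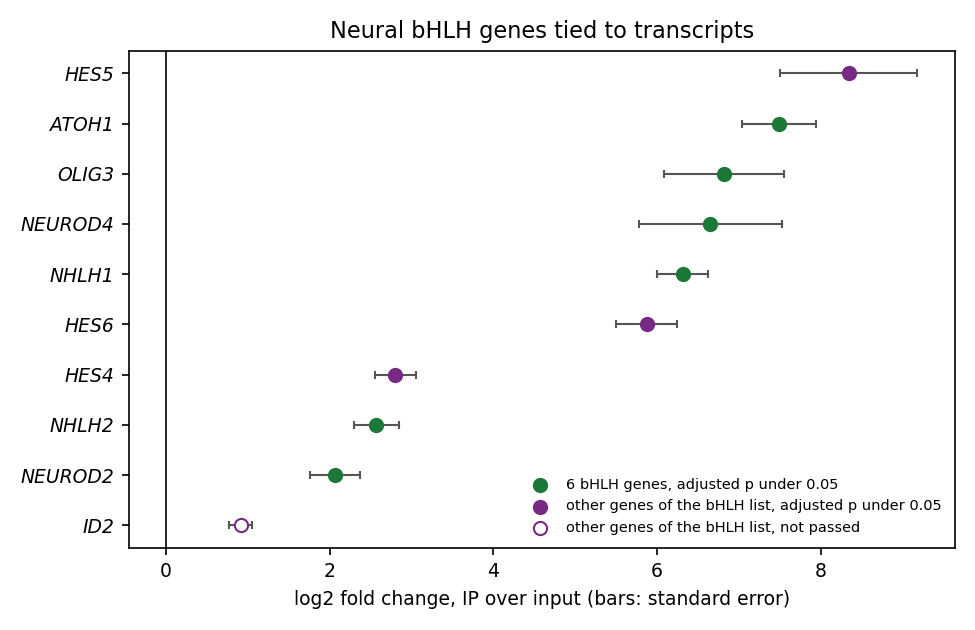
Log2 fold change of IP over input with its standard error (bars) for 10 genes of the bHLH list that could be tied to transcripts, in order of size. HES5 at 8.35, ATOH1 at 7.49, OLIG3 at 6.82, NEUROD4 at 6.65, NHLH1 at 6.31 and HES6 at 5.87 stand above the rest, and ID2 (open circle) did not pass the test.

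GAPDH, the glycolytic enzyme often used as a reference, had 1381, 1492 and 1663 CPM in the IPs, against 2700 CPM in the input. Its log2 fold change of -0.84 (standard error 0.14) did not pass the test (adjusted p = 0.0575, edgeR). Markers of other cells moved beside the 6 genes. Of 11 endothelial and mesenchymal markers 3 could be tied. All 3 were lower in the IPs, where 27.2% of the named genes and 1.5% of all genes and transcripts were. These were TM4SF1, ADGRL4 and COL1A1, with log2 fold changes of -4.17, -3.38 and -1.46. Their summed level was 1054 to 1223 CPM in the IPs, against 4163 CPM in the input. Of 12 genes listed here as granule cell lineage markers 6 could be tied, ATOH1 and OLIG3 among them. Of the other 4, 3 were higher, where 29.8% of the named genes and 2.34% of all genes and transcripts were. These were BARHL1 at 5.51, CNTN2 at 4.61 and MSX1 at 2.72 on the log2 scale, while LMX1A at 2.37 did not pass the test. How specific the listed genes, MSX1 and LMX1A among them, are to that lineage was not tested. From 3 tied of 8 neural stem and astroglial markers, SOX2 was higher (log2 fold change 3.49), SOX9 was lower (-1.81) and FABP7 (1.74) did not pass. Of 4 pluripotent markers 1 could be tied, LIN28A, which did not pass (log2 fold change 3.01). Of 8 GABAergic cerebellar markers 0 could be tied. The part of other cells of the input in the differences was not tested. More cells of a type, more RNA per cell and more ribosome-bound mRNA per transcript cannot be told apart in these bulk libraries. The 1 input library was not paired with each IP. A difference between cultures therefore cannot be told apart from one between IP and input either.

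For each gene the 3 named genes of at least 10 CPM with the most similar pattern were found, by the Euclidean distance of log2 CPM centred on the gene's mean over the 4 libraries, among 1529 genes, which leaves NEUROD4 out as a neighbour. Since the input is 1 of 4 points and differs most, the distance mainly follows the size of the difference. That size is taken after a prior count of 2 was added, which shrinks it for genes with few input reads. NEUROD4, with 2 input reads and a log2 fold change of 6.65, had neighbours at 5.52, 5.57 and 5.31. Nearest to ATOH1 was WNT1, a secreted WNT ligand, at a distance of 0.226, with 49.2, 62.0 and 52.4 CPM in the IPs, against 0.297 CPM in the input. HOXB7 and WNT10A came next, at 0.371 and 0.469. WNT1 was also the third nearest to OLIG3 at 0.952, after HOXC9 at 0.516 and ATOH1 itself at 0.73.

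Nearest to NHLH1 was HOXB9 at 0.169, a posterior HOX factor, with 104, 94.3 and 74.2 CPM in the IPs, against 1.11 CPM in the input. HES6 and HOXC9 followed at 0.372 and 0.58. Nearest to NHLH2 were EFCC1 at 0.087, P2RX3 (an ATP-gated channel) at 0.102 and LRRTM1 (a synaptic adhesion protein) at 0.128. Nearest to NEUROD2 were ECI1, H2AFJ and PELI2, at 0.105, 0.128 and 0.146. Nearest to NEUROD4 were CSRP1 at 0.382, PCP4 at 0.495 and IGFBPL1 at 0.507. Of the 6, only OLIG3 lay farther from its nearest gene, at 0.516. Among the 6 themselves, NHLH1 and NEUROD4 were the nearest pair at 0.56, with NHLH2 and NEUROD2 next at 0.564, and NEUROD2 lay farthest from ATOH1 at 4.42.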

How the data were processed

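RNA-seq was done by the authors on 3 IP and 1 input libraries with SMART-Seq v4 cDNA and Nextera XT. Per the submitters' processing notes the authors used bcl2fastq, Salmon 0.8.2 and DESeq2 1.20.0 with hg19. The deposited files give, for each UCSC known gene transcript and library, an estimated count and a TPM from Salmon. The labels do not say whether the IPs are separate cultures, and the study's methods describe separate differentiations.

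Transcripts were tied to symbols by the mean count of a gene in the study's gene table, of which 1998 rows could be used, all among its strongest calls. Its columns of the authors' comparison (fold change, p-values) served only this naming and the identification of the input, and are not reported. Single transcripts had to equal the mean count within 1e-05 and the log2 fold change within 0.001. Sums of several transcripts, NHLH2 among them, had to lie within 2% of the mean count and 2e-05 of the log2 fold change. Both matches took the T113 library as the input. In all, 1652 genes were joined, 489 of them on 1 transcript, with 54 ambiguous genes and 6 that shared transcripts left out. All other transcripts were tested singly.

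Estimated counts were rounded and tested with edgeR 4.0.16 (R 4.3.3), TMM, minimum count 10, the quasi-likelihood test and Benjamini-Hochberg adjustment over all 43846 genes and transcripts, threshold 0.05. The standard error is the absolute log2 fold change over the square root of F. DESeq2 1.42.0 and limma 3.58.1 (limma-voom) were alternatives, as were median-ratio scaling, other filters, length offsets and leaving out each IP. Others were the file table's input, each transcript tested on its own, and the joined genes alone. No other way of tying transcripts to symbols was fitted. The fit was tested on simulated data. Depth was 34603230 to 41173019 counts, and intervals are 95% Poisson or exact binomial. The genes named are the 6, GAPDH, the tied genes of the bHLH list and the 3 nearest genes of each (prior count 2), with markers by list; 1 tied gene of the bHLH list is not reported here. The members and lists were chosen with earlier results of these data known.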

Additional observations from a re-analysis of the deposited data

How the results depend on the processing

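All 6 genes kept a positive log2 fold change under every alternative except the file table's assignment of the input. There it was -0.17 for ATOH1, -0.79 for NHLH1, -0.40 for NHLH2, -0.41 for NEUROD2 and -0.43 for NEUROD4, none of them called, and OLIG3 had 0.31 (adjusted p = 1 for each, edgeR). That assignment, limma-voom and leaving out any 1 IP (range 0 to 0) each gave 0 of the 6 genes, 0 of the bHLH list, and 0 higher and 0 lower among all genes and transcripts. The unadjusted p was under 0.05 for 3796 higher and 6418 lower with limma-voom, and for 1036 and 228 with the file table's input. DESeq2 called 5761 higher and 4028 lower, 5785 and 4043 with a length offset, and a minimum of 50 counts in 2 libraries gave 1871 and 1157 with edgeR, against 1027 and 659. All 6 genes passed with both DESeq2 fits, that filter, edgeR with a length offset, and a fit of the joined genes alone. The last was chosen after seeing the data and moved the log2 fold changes of the 6 by a median of -0.16. Median-ratio scaling moved them by -0.04. NEUROD2 was the gene lost where 5 of 6 passed. The cause of these differences was not tested. Depth limits the ratios of NEUROD4, ATOH1 and OLIG3, with 2, 7 and 11 input reads. No paired analysis was possible because only 1 input library was analysed. With each transcript on its own, no count for the bHLH list was made.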
